A study of Mus musculus with 6 samples.

Results

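The genes described here encode metabotropic glutamate receptors, the G protein-coupled receptors for the main excitatory transmitter of the brain. They are Grm2, Grm3, Grm4, Grm5, Grm7 and Grm8, which were taken by symbol from the gene list that all 6 matrices share and make up 6 of its 19465 genes. The samples were 6 formalin-fixed, paraffin-embedded coronal brain sections, 2 from each of 3 ages, from untreated male C57BL/6J mice. P21 was postnatal day 21, the adult mice were 12 to 15 weeks old by the labels, and the aged mice were 28 months old. Tissue of the P21 and adult mice lay directly on slides of Visium v1. That of the aged mice was transferred by CytAssist onto slides of Visium v2, and the study's methods name a changed probe design for these libraries, so the slide, the transfer, the probes and the software version cannot be told apart from age in the comparison of aged with adult. The labels call the sections of an age biological replicates and say no more about them, so with 2 sections an age each p-value rests on the spread among 6 sections.

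Metabotropic glutamate receptors fall into groups by sequence and coupling. Grm5 belongs to group I, which couples to Gq and phospholipase C, releases calcium from internal stores and sits mostly on the postsynaptic side. Grm2 and Grm3 form group II, and Grm4, Grm7 and Grm8 belong to group III, together with Grm6 of retinal bipolar cells. Groups II and III couple to Gi/o, lower the activity of adenylyl cyclase and act largely as presynaptic brakes on transmitter release, while Grm3 is also known from astrocytes.

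Visium reads probes bound to RNA over a grid of spots, and a spot is a small region that can hold several cells of different types. After removal of spots with fewer than 250 genes or 500 unique molecules (UMIs), 20336 spots remained, 2917 to 3679 a section, with medians of 12074.5 to 25535 UMIs a spot. Barcodes mark positions on a slide type, and the aged sections share 0 of them with the others. Spots were clustered without these genes and without the pathway genes below, 77 genes in all, and clusters were named from fixed marker panels. The regions tested were fibre tracts (FT), striatum (STR), cortex (CTX), hypothalamus (HY), thalamus (TH) and hippocampus (HP). Finer zones were the reticular thalamus (RT, 237 spots), the ventricular system (VS), meninges and vessels, and parts of HP and CTX. Cortical clusters without a clear layer are called by a leading gene (Rorb, Tshz2 or Nnat, the last of which scored on the panel of piriform and amygdalar cortex), as is a cluster led by Lypd1 with 2045 spots. The other clusters took the name of the panel on which they scored highest, so that score is no separate support for the names. Levels are in CPM, the UMIs of a gene per 1000000 UMIs summed over a zone of a section, and probes of different genes may capture differently, so levels are compared within a gene only.

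The genes lie on 5 chromosomes of GRCm38. Grm5 spans chromosome 7 from 87584168 to 88134907 on the plus strand. Grm2 lies on chromosome 9 from 106643095 to 106656082 and Grm3 on chromosome 5 from 9485541 to 9725170, both on the minus strand. Grm4 lies on chromosome 17 from 27422387 to 27521403 on the minus strand. Grm7, from 110645581 to 111567230 on the plus strand, and Grm8, from 27275119 to 28135178 on the minus strand, share chromosome 6. The 250 bases upstream of the RefSeq start were in hand for 4 of the 6 genes, and those of Grm2 and Grm3 are shown because both genes belong to group II and yet had different leading zones and age differences. Grm2 is read from chr9:106656110-106656359 and Grm3 from chr5:9725353-9725602 of GRCm38.p6, each 5′ to 3′ on the minus strand, and capitals mark the letters of the GC box, GGGCGG, found on either strand.
Grm2: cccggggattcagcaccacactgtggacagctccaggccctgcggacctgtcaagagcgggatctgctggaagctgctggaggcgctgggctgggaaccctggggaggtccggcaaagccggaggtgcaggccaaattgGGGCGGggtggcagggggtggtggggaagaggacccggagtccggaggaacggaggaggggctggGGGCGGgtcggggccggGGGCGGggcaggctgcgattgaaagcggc
Grm3: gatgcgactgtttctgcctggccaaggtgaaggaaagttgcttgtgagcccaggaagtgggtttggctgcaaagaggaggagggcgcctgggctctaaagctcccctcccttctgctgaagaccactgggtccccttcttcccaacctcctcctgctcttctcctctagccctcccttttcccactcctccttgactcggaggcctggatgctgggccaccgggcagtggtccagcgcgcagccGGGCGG
The GC box had 3 matches in the Grm2 window and 1 each in those of Grm3, Grm7 and Grm8, and 32.9% of 27025 windows of the same length hold at least 1 match. TATAAA, the TATA box, TGACGTCA, the cyclic AMP response element, and CACGTG, the E box, had no match in any of these 4 windows and were held by 13%, 1.62% and 6.05% of all windows. G and C made up 71.2% of the Grm2 window and 62.4% of the Grm3 window against a median of 52.0% over all windows. A match describes the letters and is not a measured site.

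Grm5, the postsynaptic group I receptor, was widespread and highest in pyramidal zones and striatum. In CA1-2 it measured 158 and 210.5 CPM at P21, 157 and 173 CPM in adult and 131 and 153 CPM in aged sections. CA3 (137 to 169 CPM) and STR (134 to 158 CPM) came next, and neither neighbour in this order stood apart in every section. The Lypd1-led zone followed and was below STR in 6 of 6 sections. The lowest zones were RT, FT and VS, and the first zone was 4.86 times the last by mean log2 level.

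Grm2, a group II autoreceptor of glutamatergic terminals, had its highest levels in the dentate gyrus (DG) and in the Rorb-led cortical zone. In DG it measured 139.8 and 144 CPM at P21, 208 and 185 CPM in adult and 152 and 192 CPM in aged sections. The Rorb-led zone held 133 and 148 CPM at P21, 162 and 124 CPM in adult and 97.9 and 88.2 CPM in aged sections. DG was above the Rorb-led zone in 5 of 6 sections, and the Rorb-led zone was 2.20 times the next one, the Tshz2-led zone, and above it in every section. At the other end CA1-2 held 0.603 to 21.2 CPM, so the hippocampal layers stood at both ends of the order and the first zone was 22.6 times the last.

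Grm3, the other group II receptor, led in the reticular thalamus, the sheet of GABAergic neurons around the relay nuclei. RT measured 176 and 164 CPM at P21, 223 and 207 CPM in adult and 342 and 322 CPM in aged sections. This was 1.85 times the Rorb-led zone on average, and RT was higher in 6 of 6 sections. The Rorb-led zone held 105 to 142 CPM, the cortical zones as a whole were high, and CA1-2 (7.16 to 36.7 CPM) and CA3 (8.96 to 24.4 CPM) were low. Unlike Grm2, the FT level of Grm3 was close to its CTX level in adult and aged sections, as described below.

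Grm4, a group III receptor, was highest in the thalamus, where relay cells send glutamatergic fibres to the cortex. TH measured 128 and 124 CPM at P21, 102 and 104 CPM in adult and 144 and 125 CPM in aged sections. STR was second at 32.6 to 52.9 CPM, and TH was 2.76 times STR with no section in the other order. STR in turn was above the next zone in 6 of 6 sections, and DG, CA3 and CA1-2 were among the lowest zones, with DG at 2.46 to 18.7 CPM.

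Grm7, the group III receptor of the active zone, was the most even of the 6 genes over the tissue, with a first zone only 3.28 times the last. It ranged over the 6 sections from 101 to 141 CPM in the Rorb-led zone, from 111 to 121 CPM in CA3 and from 25.1 to 44.7 CPM in VS. None of its first 3 zones was above the next in every section. Grm8, also of group III, had its highest mean over the 6 sections in deep cortical layers at 32.9 and 33.5 CPM at P21, 43.5 and 44.0 CPM in adult and 38.9 and 39.7 CPM in aged sections. STR (30.1 to 44.1 CPM) and the Nnat-led cortical zone (29.7 to 44.7 CPM) did not stand apart from it, and CA1-2 was last at 0.603 to 9.13 CPM. The zone with the highest mean differed by age: deep layers in adult sections, the Nnat-led zone at P21, followed by HY (35.4 and 33.6 CPM), and RT in aged sections (37.6 and 44.9 CPM). In aged section 1, however, RT lay below deep layers, and the Nnat-led zone rested on 62 and 25 UMIs at P21. Whether the order changed with age was not tested.

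Within each gene 16 neighbouring zones were compared, 96 pairs in all, and 10 pairs had the same order in 6 of 6 sections. The exact two-sided sign-flip permutation test over 6 sections cannot go below p = 0.03125. The 10 pairs had this value, which was 0.3 after Benjamini-Hochberg adjustment over the 96 pairs, so no pair passed. The order was itself taken from these data and is a description. The first zone exceeded the second in every section for 2 of the 6 genes, Grm3 and Grm4. Spatial structure was also read from Moran's I, the autocorrelation score over spots that the deposited files list for each section. Grm4 ranked within the top 1.76 to 4.35% of the genes scored in the 6 sections and Grm2 within the top 3.0 to 5.54%. Grm3 lay at 4.27 to 12.8% and Grm8 at 11.3 to 16.4% from the top. Grm5 lay at 6.64 and 8.31% in aged sections and at 12.2 to 15.9% in P21 and adult sections. Grm7 lay at 10.1 and 10.1% in aged sections and at 19.0 to 26.3% in P21 and adult sections. A UMI of Grm7 was found in 58.6 to 81.4% of the spots of a section and one of Grm4 in 28.9 to 55.1%, shares that depend on depth.

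**Figure D1:**
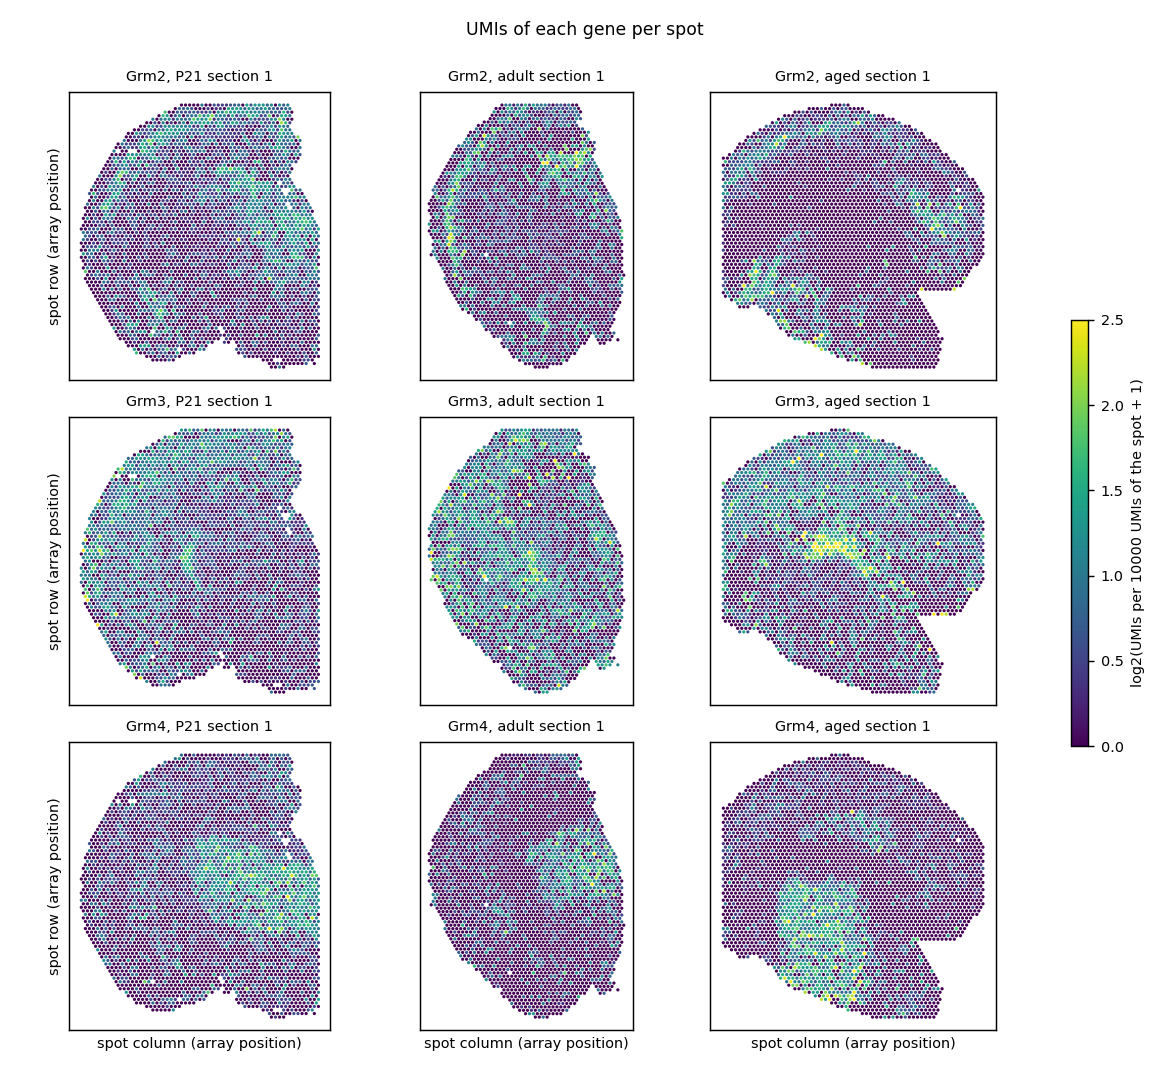
Spots of section 1 of each age (columns) at their slide positions, coloured by the level of Grm2, Grm3 or Grm4 (rows) as log2 of UMIs per 10000 UMIs of the spot plus 1. Grm4 fills the thalamus, Grm3 marks a band beside it and Grm2 marks a cortical band and the dentate gyrus.

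The genes most like each member over zones were found from Pearson correlations of log2(CPM + 1) over 102 values, 17 zones in each of 6 sections, among 12033 genes. The points share sections, depth and the borders of the zones, so the values describe the pattern only. Grm5 was closest to Camkv (r = 0.92), Rap2b (0.91) and Shisa7 (0.91). Grm2 was closest to Pla2g4e (0.79), Cnih3 (0.79) and Stxbp6 (0.78). Grm3 was closest to Nrg1 (0.81), Kif5a (0.77) and Dpy19l1 (0.77). For Grm4 the list was Mb21d2 (0.79), Kcnj12 (0.76) and Cit (0.75). For Grm7 it was Fam126b (0.79), Usp15 (0.76) and Ube2o (0.76), and for Grm8 Lrrtm3 (0.84), Grik3 (0.81) and Ptprt (0.78). Between the 6 genes themselves the highest correlation was 0.60 (Grm3 with Grm8) and the lowest -0.45 (Grm3 with Grm5), and the 2 group II genes had 0.09.

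The comparison of P21 with adult asked which of these genes differ between the young and the mature brain, and in which region. A difference was called where the edgeR quasi-likelihood test on UMIs summed per section and region gave an adjusted p under 0.05 and the fold change exceeded 1.5. Of 36 gene-region pairs (6 genes in 6 regions) 6 were called, 3 higher and 3 lower at P21, against 5.97% of all gene-region pairs tested. The 3 lower pairs all belonged to Grm3, while those higher were 2 of Grm4 and 1 of Grm2. The median log2 fold change over the 36 pairs was -0.04, beside -0.01 over all pairs tested. Fewer cells of a type and less RNA per cell cannot be told apart in sums over spots. Both age comparisons use the same adult sections.

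Grm3 fell at P21 in fibre tracts, hypothalamus and thalamus. In FT it measured 48.2 and 49.6 CPM at P21, 109 and 99.1 CPM in adult and 115 and 108 CPM in aged sections, so the P21 sections lay well below all others (log2 fold change -1.10, standard error 0.10, edgeR adjusted p = 3.77e-08, with 9.18% of all genes called there). In HY the P21 sections held 21.9 and 23.6 CPM and the adult sections 55.5 and 50.4 CPM (log2 fold change -1.22, standard error 0.12, edgeR adjusted p = 0.00104, 3.67% of genes called). In TH they held 31.7 and 29.7 CPM against 60.2 and 45.1 CPM (log2 fold change -0.75, standard error 0.17, edgeR adjusted p = 0.0127, 7% of genes called). The HY call was lost without P21 section 1 (-1.16, adjusted p = 0.0634). The TH call was lost without P21 section 1 (-0.81, adjusted p = 0.0878), without P21 section 2 (-0.71, adjusted p = 0.109) and without adult section 1 (-0.53, adjusted p = 0.119). The FT call stood in each alternative run. In CTX, HP and STR the log2 fold changes of Grm3 were -0.23, -0.17 and -0.23 and were not called, with 5.56%, 6.48% and 3.91% of all genes called there. Markers of oligodendrocytes moved in the same spots: in FT their 10 genes summed to 84878 and 103639 CPM at P21 and 45171 and 43859 CPM in adults, with 8 of 10 called higher, and in TH to 29951 and 31683 CPM at P21 against 13262 and 13769 CPM in adults. They also rose where Grm3 was not called, with 8 of 10 called higher in CTX, 9 of 10 in HP and 9 of 10 in STR. In HY 6 were called higher and 1 lower. The 10 genes of astrocytes, a cell type known to hold Grm3, summed to 2336 and 2496 CPM against 2698 and 2787 CPM in FT. They were also lower at P21 in HY (2069 and 2169 against 2537 and 2393 CPM). The same held in TH (2144 and 2159 against 2360 and 2527 CPM). Their sums were higher at P21 in CTX (1628 and 1521 against 1449 and 1379 CPM). In HP they were higher too (1983 and 1977 against 1779 and 1857 CPM). Those in STR overlapped (1782 and 1709 against 1726 and 1638 CPM). Of these astrocyte genes 0 were called in any of the 6 regions. The part of either list in the Grm3 difference was not tested.

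Grm4 rose at P21 in hippocampus and fibre tracts, both regions where its level was low. In HP it measured 23.7 and 18.4 CPM at P21, 9.93 and 9.81 CPM in adult and 8.81 and 8.76 CPM in aged sections (log2 fold change 1.15, standard error 0.18, edgeR adjusted p = 0.00134, with 6.48% of genes called). In FT the P21 sections held 26.3 and 23.8 CPM against 13.2 and 16.1 CPM (log2 fold change 0.78, standard error 0.16, edgeR adjusted p = 0.00125). Leaving out P21 section 1 ended the HP call (0.92, adjusted p = 0.0764), and no alternative ended the FT call. As a percent of its CTX level, however, Grm4 in FT overlapped, at 86.3 and 83.7% at P21 and 53.2 and 103% in adults. The thalamic panel of 10 genes, read in FT, stood at 17.2 and 17.2% of its TH level at P21 and 11.0 and 10.0% in adults. The cortical, striatal and hippocampal panels read in FT did not stand above both adult sections at P21. In TH, its leading zone, the P21 sections were higher (128 and 124 against 102 and 104 CPM, log2 fold change 0.31, edgeR adjusted p = 0.0301), but the fold stayed under 1.5, as it did in CTX (0.53) and STR (0.51). Among the finer zones, DG and upper cortical layers were called. DG held 18.7 and 12.4 CPM at P21 and 2.46 and 4.49 CPM in adults (log2 fold change 2.21, edgeR adjusted p = 0.00403, 10% of genes called), and upper cortical layers held 22.6 and 24.9 against 12.7 and 6.96 CPM (log2 fold change 1.2, edgeR adjusted p = 0.00138, 6.63%). The DG call rested on 41 and 14 UMIs against 4 and 8 and was lost without P21 section 1 (1.82, adjusted p = 0.171) or adult section 1 (1.84, adjusted p = 0.0631). The call in upper layers was lost without adult section 2 (0.89, adjusted p = 0.0684) and with panel score regions (0.49, adjusted p = 0.0723). Oligodendrocyte genes were higher in the same spots, as they were in the other regions tested. In HP the 10 genes summed to 18484 and 16908 CPM at P21 and 7348 and 6459 CPM in adults with 9 called higher, and in DG to 9428 and 7324 against 2516 and 2073 CPM with 10 called higher. The 10 astrocyte genes in DG summed to 1339 and 1337 against 965 and 964 CPM with 5 called higher. The part of these lists and of the thalamic panel in the Grm4 differences was not tested.

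Grm4 was also called higher at P21 in CA3, HP matrix, RT, the Lypd1-led and Tshz2-led zones and VS, with shares of all genes called of 2.86%, 5.1%, 3.28%, 4.27%, 5.21% and 6.4%. The log2 fold changes were 1.83, 0.77, 1.22, 0.73 and 0.63 in the first 5 of these. In VS the adult sections held 9 and 0 UMIs, and a count of 0 allows up to 3, so the P21 counts of 63 and 23 UMIs are given with no fold. All 6 of these calls were lost in at least 1 fit that left out a P21 section, and those in CA3, HP matrix, RT and the Lypd1-led and Tshz2-led zones also without adult section 2. In CA3, for instance, the log2 fold change was 1.42, adjusted p = 0.656 without P21 section 1, and in HP matrix 0.49, adjusted p = 0.491.

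Grm2 rose at P21 in the thalamus. TH held 68.1 and 68.6 CPM at P21, 34.7 and 34.2 CPM in adult and 34.3 and 33.1 CPM in aged sections, so that both P21 sections lay above the other 4 (2.01-fold against adult, log2 fold change 1.01, standard error 0.09, edgeR adjusted p = 5.71e-05), and the call stood in each alternative. In CTX the P21 and adult levels were close (68.1 and 64.5 against 62.6 and 51.8 CPM, log2 fold change 0.20, edgeR adjusted p = 0.201), but within it the Tshz2-led zone was called higher (84.7 and 77.4 against 54.2 and 50.3 CPM, log2 fold change 0.65, edgeR adjusted p = 0.00178). That call was lost without P21 section 1 (0.58, adjusted p = 0.0787). In DG Grm2 measured 139.8 and 144 against 208 and 185 CPM, with a fold under 1.5 (log2 fold change -0.44, edgeR adjusted p = 0.0402). Grm5, Grm7 and Grm8 had no called pair in the 6 regions. The largest of their differences was that of Grm8 in CTX (24.7 and 24.6 against 31.7 and 34.7 CPM, log2 fold change -0.44, edgeR adjusted p = 0.0108), and in the Tshz2-led zone Grm8 fell (28.4 and 22.3 against 38.0 and 43.0 CPM, log2 fold change -0.60, edgeR adjusted p = 0.0227). The last call was lost without any 1 of the P21 and adult sections, with adjusted p of 0.0643 to 0.169.

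Summed over whole sections, 2 of the 6 genes were called at P21 against 5.12% of all genes. Grm3 fell (56.0 and 47.1 against 82.1 and 75.8 CPM, log2 fold change -0.61, standard error 0.09, edgeR adjusted p = 0.000376). Grm4 rose (49.1 and 49.6 against 32.8 and 32.8 CPM, log2 fold change 0.59, standard error 0.08, edgeR adjusted p = 0.000362). Both folds were near 1.5, and both calls were lost without P21 section 2 (-0.50, adjusted p = 0.0113 for Grm3 and 0.58, adjusted p = 0.00935 for Grm4) or without adult section 1 (-0.56, adjusted p = 0.00267 and 0.58, adjusted p = 0.00293). Regions take different shares of each section, which these sums do not separate.

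**Figure D2:**
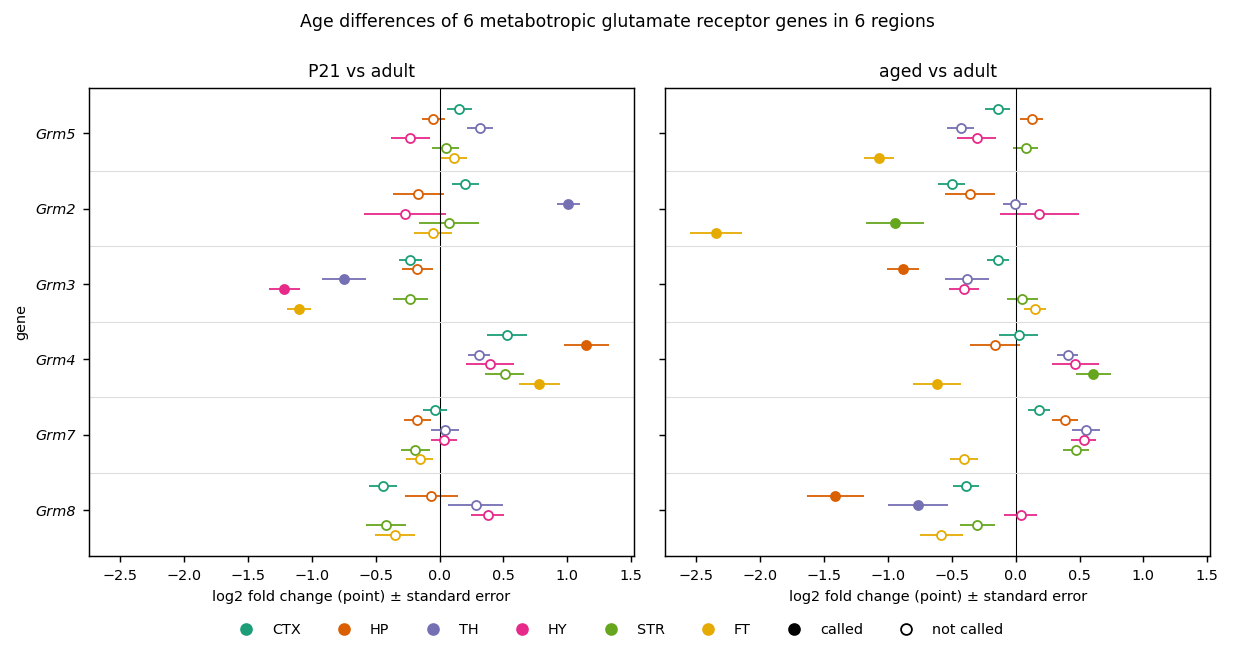
Log2 fold change (horizontal axis) of each gene (rows) in 6 regions (colours) for P21 against adult (left) and aged against adult (right), with the standard error as a bar, filled where called. The 3 filled points left of 0 at P21 are those of Grm3, and the Grm2 point of fibre tracts in aged sections lies lowest at -2.35.

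The comparison of aged with adult asked the same of the aged brain. Of the 36 gene-region pairs 8 were called, 1 higher and 7 lower in aged sections, against 14.8% of all gene-region pairs tested. The median log2 fold change was -0.15 over the 36 pairs and -0.01 over all. Fibre tracts held 3 of the 7 lower pairs, and they also had the highest share of all genes called, 27.2%.

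In fibre tracts Grm2, Grm5 and Grm4 fell. Grm2 measured 25 and 22.1 CPM at P21, 27.2 and 22.1 CPM in adult and 4.74 and 4.58 CPM in aged sections, so the aged sections lay far below the other 4 (log2 fold change -2.35, standard error 0.20, edgeR adjusted p = 1.38e-08). Grm5 measured 59.9 and 65.0 CPM at P21, 59.1 and 55.4 CPM in adult and 26.2 and 26.4 CPM in aged sections (log2 fold change -1.07, standard error 0.12, edgeR adjusted p = 2.56e-07). Both calls stood in each alternative, among them one that kept only spots whose neighbours were all fibre tract, but with FT spots chosen by panel score the log2 fold change of Grm2 was smaller (-1.39, adjusted p = 0.000484). For Grm4 the aged sections held 8.91 and 9.51 CPM against 13.2 and 16.1 CPM (log2 fold change -0.62, standard error 0.19, edgeR adjusted p = 0.010), a call that was lost without adult section 2 (-0.49, adjusted p = 0.0928) and in FT spots chosen by panel score (-0.17, adjusted p = 0.377). Grm8 (12.9 and 16.2 against 20.8 and 24.5 CPM, log2 fold change -0.58, edgeR adjusted p = 0.00583) and Grm7 (44.8 and 43.2 against 59.3 and 61.2 CPM, log2 fold change -0.40, edgeR adjusted p = 0.00416) stayed under the fold of 1.5. Grm3 was not called, with 115 and 108 CPM in aged and 109 and 99.1 CPM in adult FT (log2 fold change 0.15, edgeR adjusted p = 0.156).

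Markers of other cells and of neighbouring regions moved in the same FT spots. The 10 pan-neuronal genes summed to 6180.3 and 5889.9 CPM in adult and 3064 and 3104 CPM in aged FT, with 7 of 10 called lower and none at 0. The 10 astrocyte genes summed to 2698 and 2787 CPM in adult and 5366 and 5515 CPM in aged FT with 6 called higher, and the 10 microglial genes to 877 and 981 CPM in adult and 2953 and 3017 CPM in aged FT with 9 called higher. The panel of 10 cortical genes, read in FT, stood at 34.5 and 34.9% of its CTX level at P21, at 40.2 and 35.7% in adults and at 17.4 and 18.4% in aged sections. The striatal panel stood at 15.3 and 14.8% of its STR level in adult and 5.11 and 5.55% in aged FT. The thalamic panel stood at 11.0 and 10.0% of its TH level in adult and 6.15 and 5.75% in aged FT. The hippocampal panel stood at 23.8 and 20.5% of its HP level in adult and 9.10 and 9.89% in aged FT. As a percent of its CTX level Grm2 in FT stood at 43.5 and 42.7% in adult and 10.9 and 12.0% in aged sections. On that scale Grm5 stood at 71.4 and 67.3% in adult and 31.5 and 38.7% in aged sections. Grm4 stood at 53.2 and 103% in adult and 41.7 and 46.6% in aged sections, and Grm7 at 72.3 and 77.1% against 46.4 and 49.0%. Grm8 overlapped, at 65.5 and 70.8% in adult and 48.1 and 66.6% in aged sections. Grm3 stood at 52.1 and 60.8% at P21, 109 and 96.8% in adult and 120.5 and 119% in aged sections. The part of these markers in the differences was not tested.

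**Figure D3:**
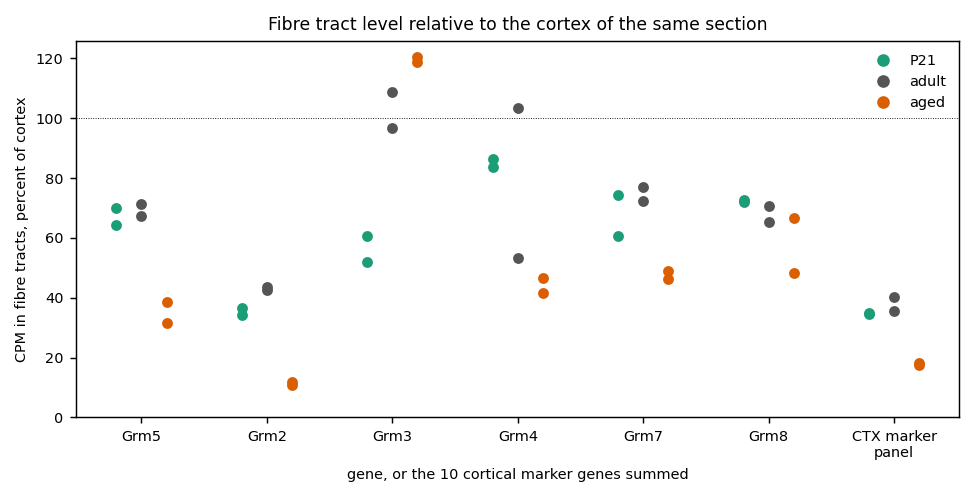
CPM in fibre tracts as a percent of CPM in the cortex of the same section (vertical axis, from 0) for each gene and for the sum of 10 cortical marker genes, with 1 point per section coloured by age. Grm2, Grm4, Grm5, Grm7 and the cortical panel are lowest in the aged sections, whereas Grm3 is lowest in the P21 sections and above 100% in both aged sections.

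In the striatum Grm2 fell and Grm4 rose in aged sections (14.2% of all genes called). Grm2 measured 13 and 9.39 CPM against 23.2 and 18.8 CPM (log2 fold change -0.94, standard error 0.23, edgeR adjusted p = 0.00425), and the call was lost without adult section 1 (-0.79, adjusted p = 0.0698). Grm4 measured 52.9 and 48.7 CPM against 33.1 and 32.6 CPM (log2 fold change 0.61, standard error 0.14, edgeR adjusted p = 0.00239), close to the fold limit. It fell short of that limit without aged section 1 (0.55, adjusted p = 0.00937) and was not called over interior spots (0.44, adjusted p = 0.066). Markers moved in STR too. The 10 genes of the striatal panel summed to 5413 and 4736 CPM in adult and 7019 and 7921 CPM in aged sections, and the 10 GABAergic genes to 1693 and 1793 CPM in adult and 2308 and 2418 CPM in aged sections with 3 called higher and 2 lower. The 10 pan-neuronal genes summed to 7793 and 7257 CPM in adult and 6063 and 6342 CPM in aged sections with 1 called higher and 2 lower, and the 10 microglial genes to 619.8 and 558 CPM in adult and 851 and 844 CPM in aged sections with 3 called higher. Of 14 tested genes that supply or clear glutamate, 2 were called higher and 3 lower in aged STR. Among the lower was the vesicular transporter Slc17a7 (log2 fold change -2.20, edgeR adjusted p = 3.82e-09). The part of these genes and lists in the striatal differences was not tested. In TH, where Grm4 is highest, the aged sections held 144 and 125 CPM against 102 and 104 CPM (log2 fold change 0.41, edgeR adjusted p = 0.00394), again under the fold of 1.5.

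In the hippocampus Grm3 and Grm8 fell (11.7% of all genes called). Grm3 measured 25.1 and 22.8 CPM in aged and 46.7 and 41.7 CPM in adult sections (log2 fold change -0.88, standard error 0.13, edgeR adjusted p = 0.000386). Grm8 measured 4.14 and 4.87 CPM against 14.0 and 10.4 CPM (log2 fold change -1.41, standard error 0.22, edgeR adjusted p = 0.00081). The spots taken as HP differed in make-up, since the matrix, which lies between the cell layers, took 69.8 and 70.4% of HP spots in adult and 52.5 and 50.4% in aged sections. Both calls were lost when HP was chosen by panel score (-0.51, adjusted p = 0.00744 for Grm3 and -0.33, adjusted p = 0.202 for Grm8). Within the matrix Grm8 fell (5.85 and 4.02 against 19.7 and 16.5 CPM, log2 fold change -1.86, edgeR adjusted p = 0.000109, 15.8% of genes called), though not with panel score regions (-0.96, adjusted p = 0.142). Grm3 there stayed under the fold of 1.5 (48.8 and 51.8 against 77.2 and 68.6 CPM, log2 fold change -0.53, edgeR adjusted p = 0.00931), and in CA3 it was called (log2 fold change -0.88, edgeR adjusted p = 0.0357, 7.42% of genes called) but in no fit that left out an adult section or aged section 1 (-0.84, adjusted p = 0.182, -0.93, adjusted p = 0.173 and -0.79, adjusted p = 0.108). The 10 oligodendrocyte genes in HP summed to 7348 and 6459 CPM in adult and 3797 and 3073 CPM in aged sections with 10 of 10 called lower. In the matrix the 10 astrocyte genes summed to 2999 and 3222 CPM in adult and 5038 and 5950.2 CPM in aged sections and the 10 microglial genes to 929.7 and 949 CPM in adult and 1505 and 1762 CPM in aged sections. The part of these lists in the hippocampal differences was not tested.

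In DG Grm7 was called higher in aged sections (181 and 123 against 105 and 94.3 CPM, log2 fold change 0.60, edgeR adjusted p = 0.0366, 6.78% of genes called). The call was lost without any of the P21 or adult sections, with adjusted p of 0.0641 to 0.233, and without aged section 1 (0.32, adjusted p = 0.0834). In the same DG spots the 10 astrocyte genes summed to 965 and 964 CPM in adult and 1917 and 1461 CPM in aged sections with 5 called higher, and the 10 microglial genes to 273 and 281 CPM in adult and 565 and 411 CPM in aged sections with 4 of 9 tested called higher. Both sums and Grm7 were highest in aged section 1, and the part of these lists in the Grm7 difference was not tested. In CA1-2 Grm2 was called lower, on 8 and 7 UMIs in adult and 2 and 1 UMIs in aged sections (7.32% of genes called). That call was lost without 5 of the 6 sections in turn, all but aged section 1, with adjusted p of 0.0541 to 0.258.

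In the reticular thalamus Grm3 rose while Grm2 and Grm5 fell (16.6% of all genes called). Grm3, already highest in RT, measured 342 and 322 CPM in aged against 223 and 207 CPM in adult sections (log2 fold change 0.64, standard error 0.12, edgeR adjusted p = 0.000144). It fell short of the fold limit without adult section 2 (0.58, adjusted p = 0.0131) and in spots chosen by panel score (0.52, adjusted p = 0.0267). Grm5 measured 17.8 and 18.0 CPM against 66.6 and 45.4 CPM (log2 fold change -1.62, standard error 0.26, edgeR adjusted p = 1.54e-05). Grm2 counted 5 and 1 UMIs against 29 and 20 UMIs (3.55 and 0.817 against 27.6 and 15.9 CPM, edgeR adjusted p = 5.46e-05), counts too low for a firm fold. The Grm5 call stood in all 13 alternatives, and the Grm2 call in the 12 that gave a value for it. In spots chosen by panel score the difference was much smaller for Grm5 (-0.66, adjusted p = 0.00329) and for Grm2 (-1.36, adjusted p = 0.000252). The log2 fold change of Grm2 was -4.50, adjusted p = 1.14e-05 without aged section 1 and -2.54, adjusted p = 0.000311 without aged section 2. RT took 37 and 43 spots in adult and 54 and 46 in aged sections. In these spots the striatal panel stood at 17.8 and 15.8% of its STR level in adult and 9.16 and 9.03% in aged sections, and the thalamic panel at 24.6 and 25.3% of its TH level in adult and 29.1 and 18.9% in aged sections. Marker lists moved in RT as well. The 10 GABAergic genes summed to 4881 and 5434 CPM in adult and 8636 and 8836 CPM in aged sections (9 tested, 3 called higher and 1 lower). This list is of GABAergic neurons in general, and its genes Gad1, Gad2 and Pvalb also belong to the panel that named RT. The 10 microglial genes summed to 486 and 546 CPM in adult and 932 and 973 CPM in aged sections with 6 called higher and 1 lower, and the 10 astrocyte genes to 2478 and 2531 CPM in adult and 3632 and 3600.3 CPM in aged sections with 2 called higher. The 10 oligodendrocyte genes summed to 25183 and 22635 CPM in adult and 16401 and 17243 CPM in aged sections with 4 called lower, and the 10 pan-neuronal genes to 8456 and 8399 CPM in adult and 9125 and 9169 CPM in aged sections. Their part in the RT differences was not tested.

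In the thalamus Grm8, low at any age, fell (5.19 and 9.29 against 13.1 and 12.0 CPM, log2 fold change -0.77, standard error 0.24, edgeR adjusted p = 0.0267, with 13.8% of all genes called). The call was lost without P21 section 1 (-0.77, adjusted p = 0.0517), adult section 1 (-0.72, adjusted p = 0.114), adult section 2 (-0.84, adjusted p = 0.0736) or aged section 1 (-0.42, adjusted p = 0.0822). The 10 oligodendrocyte genes in TH summed to 13262 and 13769 CPM in adult and 8831 and 8837 CPM in aged sections with 6 called lower. The 10 GABAergic genes summed to 678 and 723 CPM in adult and 766 and 679 CPM in aged TH (6 tested, 1 called higher and 4 lower). The 10 microglial genes summed to 519 and 551 CPM in adult and 821 and 721 CPM in aged TH with 4 called higher. The part of these lists in the Grm8 difference was not tested. In the cortex as a whole 0 of the 6 genes were called, against 10.5% of all genes. Of the 6 genes, 2 had an unadjusted p under 0.05 there, a limit at which no share of all genes is given. Within the cortex Grm2 fell in deep layers (14.4 and 9.92 against 28.0 and 24.0 CPM, log2 fold change -1.13, standard error 0.18, edgeR adjusted p = 6.08e-05, 11.7% of genes called) in each alternative. Grm2 also fell in the Rorb-led zone (97.9 and 88.2 against 162 and 124 CPM, log2 fold change -0.66, edgeR adjusted p = 0.000272, 11.6%), a call that was lost without adult section 1 (-0.46, adjusted p = 0.0546) or aged section 2 (-0.58, adjusted p = 0.000741).

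Grm7 was higher in aged sections in most regions without reaching the fold limit. In aged sections it measured 144 and 111 CPM in TH against 90.1 and 86.4 CPM in adults, and 141 and 132 against 95.3 and 98.7 CPM in STR. Its log2 fold changes of 0.55 in TH, 0.53 in HY, 0.47 in STR and 0.38 in HP had adjusted p under 0.05, but no fold reached 1.5. In HY 0 of the 6 genes were called, against 11.6% of all genes. There 3 of the 6 had an unadjusted p under 0.05, a limit at which no share of all genes is given. In meninges and vessels Grm7 was called higher (97.2 and 90.4 against 54.0 and 51.8 CPM, log2 fold change 0.88, standard error 0.15, edgeR adjusted p = 0.000206, 13.4% of genes called). Grm5 was called lower in VS (19.0 and 19.7 against 39.4 and 41.3 CPM, log2 fold change -0.97, edgeR adjusted p = 0.0135, 17.8%), though not without adult section 1 (-1.01, adjusted p = 0.165), and adult section 2 had 15 VS spots. In VS the 10 pan-neuronal genes summed to 5345 and 4155 CPM in adult and 1525 and 1807 CPM in aged sections, the 10 astrocyte genes to 1979.8 and 1999.6 CPM in adult and 3794 and 3462 CPM in aged sections and the 10 microglial genes to 586 and 719 CPM in adult and 1329 and 1476 CPM in aged sections. In meninges and vessels the 10 oligodendrocyte genes summed to 8388 and 10569 CPM in adult and 2929.5 and 3325 CPM in aged sections. The part of these lists in either difference was not tested. Over whole sections 0 of the 6 genes were called in aged sections by edgeR or DESeq2, against 8.99% of all genes. The largest whole-section difference by size was that of Grm2 (32.8 and 37.3 against 46.5 and 41.9 CPM, log2 fold change -0.33, edgeR adjusted p = 0.00408). Of the 6 genes, 4 had an unadjusted p under 0.05, again with no share of all genes given at that limit.

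Whether an age difference itself differed between regions was tested with an edgeR interaction of region and age over the 6 regions. Section was a block, which takes up a shift of a gene shared by a whole section. The block does not take up an effect of slide, transfer or probes that differs between regions. In aged against adult such an effect cannot be told apart from age. For P21 against adult 3 of the 6 genes passed an adjusted p of 0.05, against 12.3% of all genes: Grm3 (0.000132), Grm8 (0.0155) and Grm2 (0.0368). The values for Grm5, Grm4 and Grm7 were 0.0522, 0.128 and 0.308. The number passing fell to 0 without P21 section 1 and to 1 without P21 section 2, adult section 1 or adult section 2, and was 5 without either aged section. For aged against adult all 6 genes passed, against 47.9% of all genes, with adjusted p from 3.12e-06 (Grm7) to 0.00909 (Grm4). Without fibre tracts 4 of the 6 passed, and Grm2 and Grm4 did not. The shares of all genes given here are those of the full fit only.

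Grm6, also of group III, was too low to test.

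Partners of the receptors were read from fixed lists, counted as gene-region pairs over the 6 regions. Of 126 pairs of group I partners and Gq signalling, 2 were called higher and 5 lower at P21 (median log2 fold change -0.08), and 12 higher and 31 lower in aged sections (-0.11). At P21 Itpr1, the calcium channel that answers inositol trisphosphate, fell in CTX (-0.73), TH (-0.67) and FT (-0.68), the scaffold gene Dlgap1 in HY (-0.71) and the diacylglycerol kinase Dgkb in HP (-0.61). In aged sections the scaffold Shank1 rose in 5 regions, from 0.65 in STR to 1.25 in CTX. Dgkb and Ncdn, which codes for neurochondrin, a protein that binds Grm5, fell in 3 regions each, and in FT by 1.57 and 1.71 on the log2 scale. Of the 21 genes, 10 were called lower in aged HY, against 5.05% of all genes, and 9 in FT, against 14.6%. In STR and TH 4 each were called lower, against 688 of 11152 and 774 of 11098 genes tested. In CTX and HP 2 each were called lower, against 474 of 11224 and 660 of 11113 genes tested.

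Gi/o signalling, the output of groups II and III, had 126 pairs, with 1 higher and 3 lower at P21 and 3 higher and 18 lower in aged sections (medians -0.03 and -0.13). Among the adenylyl cyclases, Adcy1 fell at P21 in TH (-0.61) and HY (-0.83) and Adcy2 in HP (-0.70). In aged sections Adcy8 fell in CTX (-0.91), HP (-1.02) and STR (-1.25), and Adcy2 in TH (-0.89), STR (-0.76) and FT (-0.79). Of the regulators of G protein signalling, Rgs4 rose at P21 in HP (0.59), and in aged sections Rgs14 rose in HP (1.39) and fell in TH (-0.62) and HY (-0.93).

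The 48 pairs of synaptic partners of group III had 1 higher and 0 lower at P21, and 1 higher and 7 lower in aged sections (medians 0.16 and -0.08). Elfn1, a postsynaptic protein that binds group III receptors across the synapse, rose at P21 in TH (0.89) and fell in aged TH (-1.40). Its relative Elfn2 rose in aged CTX (0.62).

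Genes that supply or clear glutamate had 84 pairs, 4 higher and 0 lower at P21, and 11 higher and 11 lower in aged sections (medians -0.01 and 0.11). At P21 the vesicular transporter Slc17a6 rose in HP (1.51) and STR (0.76), the glial uptake gene Slc1a3 in TH (0.62) and the neuronal uptake gene Slc1a1 in FT (0.74). In aged sections the glutamine transporter Slc38a2 rose in 6 of 6 regions (0.68 to 0.98) and the aspartate transaminase Got1 in 4. Slc17a7, the vesicular transporter of cortical and hippocampal neurons, fell in HY (-3.0), STR (-2.20), FT (-1.49) and TH (-0.69), and measured -0.30 in CTX and 0.17 in HP, where it was not called.

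N-acetylaspartylglutamate, a peptide transmitter that activates Grm3, is made by Rimkla and Rimklb and broken down by Folh1. Their 18 pairs had 2 higher and 2 lower at P21, and 1 higher and 3 lower in aged sections. At P21 Folh1 fell in FT (-1.19) and HY (-0.64), and Rimkla rose in CTX (0.66) and FT (1.03). In aged sections Rimklb fell in CTX (-1.10), HP (-0.78) and TH (-0.81), and Folh1 rose in FT (0.69). The shares of pairs called for these lists stand beside 5.97% and 14.8% for all genes at P21 and in aged sections, and their medians beside -0.01 and -0.01 over all pairs.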

How the data were processed

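UMIs of 10x mouse probes for FFPE tissue (of changed design for the aged sections, per the study's methods) were counted by the authors with Space Ranger (version 2.0.0 in the headers of P21 and adult files, 3.1.1 in those of the aged, and 2.1.0 in the labels) on mm10, and the deposited counts are raw. Moran's I is a score deposited per gene. The members and lists were chosen with earlier results of these data known. Spots with at least 250 genes and 500 UMIs were clustered (leidenalg 0.10.2) and summed by section and zone, with at least 15 spots each. Genes that passed the expression filter of edgeR 4.0.16 were fitted with it (glmQLFit, TMM factors, age only, 6 sections). Kept after the fit were genes seen in over 10% of a zone's spots at either compared age and in at least 10% of all spots. Their p-values were adjusted by Benjamini-Hochberg within each zone and comparison. CPM used joint TMM factors. The study's own test over spots was not used, since spots are not replicates. The scripts were tested on simulated data. Alternatives included DESeq2 1.42.0, other filters, panel score regions, equal depth and each section left out. Interior spots were chosen after seeing the data. Named were all members, and at most 3 genes a list by the number of regions called. Some genes these rules name are not reported here. The medial habenula (3 spots in adult section 1) was left out.

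Replicate numbers of different ages name different animals, so by design they pair nothing. Replicate differences correlated at 0.19 (P21 with adult), -0.17 (P21 with aged) and -0.44 (adult with aged) over 10219 genes. Swapping the replicate numbers within an age would turn the sign of a value, so the signs carry no meaning. Each age gave a single set of differences, so the values cannot show that sections of different ages were related. The source of these values was not tested.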

Additional observations from a re-analysis of the deposited data

Results flagged for a closer look

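The region-by-age test of edgeR singled out 9 results in which the age difference of a gene was not the same in all 6 regions. For P21 against adult these were Grm3 (adjusted p = 0.000132), Grm8 (adjusted p = 0.0155) and Grm2 (adjusted p = 0.0368). For aged against adult they were Grm7 (adjusted p = 3.12e-06), Grm5 (adjusted p = 3.98e-06), Grm3 (adjusted p = 0.000175), Grm2 (adjusted p = 0.00136), Grm8 (adjusted p = 0.00168) and Grm4 (adjusted p = 0.00909). The background was 12.3% of all genes at P21 and 47.9% in aged sections. Relative to cortex, the aged difference of Grm7 was -0.56 on the log2 scale in FT and 0.34 in HY, and that of Grm2 was -1.85 in FT.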

How the results depend on the processing

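No called difference changed direction under any alternative run. Grm2 in aged HY, not called in the report (18.7 and 42.9 against 28.4 and 27.4 CPM), was called higher without aged section 1 (0.63, adjusted p = 0.00722), though aged section 1 lay below both adult sections. Called gene-region pairs at P21 numbered 6 in the report, 10 with no fold minimum and 3 to 6 with 1 section left out. In aged sections they numbered 8 in the report, 19 with no fold minimum, 5 with panel score regions and 7 to 13 with 1 section left out, the highest without aged section 2. The genes passing the region-by-age test at P21 numbered 3 in the report, 5 with panel score regions and 0 to 5 with 1 section left out, and in aged sections 6 in the report and 4 to 6 with 1 section left out. Without fibre tracts these were 2 and 4. No share of all genes is given for the changed settings, so the counts describe these 6 genes only. Whole sections at P21 gave 2 genes in the report, 1 with no gene filter and 0 to 2 with 1 section left out. The fit with a replicate block gave the same counts (6 and 8 pairs by region, 2 and 0 genes in whole sections), and of the calls in zones it ended those of Grm4 at P21 in HP matrix (0.74, adjusted p = 0.0546) and RT (1.24, adjusted p = 0.0576). DESeq2 ended the call of Grm4 in aged FT (-0.63, adjusted p = 0.0625), no gene filter ended those of Grm3 in TH at P21 (-0.74, adjusted p = 0.0644) and of Grm8 in aged TH (-0.81, adjusted p = 0.0663), and at equal depth Grm4 in aged STR fell short of the fold limit (0.57, adjusted p = 0.0276). In the finer zones DESeq2 ended the calls of Grm4 at P21 in CA3, HP matrix, RT, VS and the Lypd1-led and Tshz2-led zones, of Grm8 at P21 in the Tshz2-led zone, and in aged sections of Grm2 in CA1-2, Grm3 in CA3, Grm5 in VS and Grm7 in DG. Panel score regions ended those of Grm4 in upper layers, HP matrix and RT at P21 and, in aged sections, of Grm2 in CA1-2, Grm3 in CA3 and RT, Grm7 in DG and Grm8 in HP matrix. Equal depth ended those of Grm4 in HP matrix and RT and of Grm2 and Grm8 in the Tshz2-led zone at P21 and, in aged sections, of Grm2 in the Rorb-led zone, Grm3 in CA3, Grm5 in VS and Grm7 in DG, and no gene filter those of Grm4 in CA3 and HP matrix at P21 and of Grm3 in CA3 and Grm7 in DG in aged sections. Grm8 in aged FT, not called in the report, passed the fold limit in 9 alternatives. Calls with a log2 fold change near 0.6 lie at the fold limit. The cause of these changes was not tested. Depth limits Grm8 and Grm4 most, with 970 to 2470 UMIs of Grm8 and 1628 to 4322 of Grm4 a section, and levels in CA1-2, CA3, RT and VS rest on few UMIs.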

Other observations

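Grm6, known from retinal bipolar cells, was counted 5 and 1 times at P21, 0 and 0 times in adult sections and 34 and 49 times in aged sections, over all spots. The adult counts of 0 allow up to 3 UMIs each. Depth differed, with 81997167 and 106783660 UMIs kept in aged and 52499064 and 51236277 in adult sections. P21 section 1, with 90096877 UMIs, had the count of 5. Only the aged sections had the Visium v2 slides, the transfer and the changed probe design, so these cannot be told apart from age here.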
